A study of Mus musculus with 6 samples.

Results

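The methionine cycle and its side branches were described through 9 enzyme genes taken by their gene names: Mat1a, Ahcy, Bhmt, Gnmt, Pemt, Cbs, Cth, Shmt1 and Shmt2. All 9 were found among the 55367 gene names of the count table, and all 9 were among the 18703 genes with enough counts to be tested. The data are RNA sequencing counts of whole liver from C57BL/6J mice, 3 libraries from Lmln-/- animals (Lmln-KO) and 3 from wild-type (WT) animals. Lmln encodes invadolysin, a metalloprotease found on lipid droplets. The animals were 46 weeks old in every library except Lmln-KO replicate 3, which came from a 39-week-old animal. The labels name no treatment, do not give sex, do not say how the Lmln allele was disrupted, and do not state in so many words that each library came from its own animal, so p-values measure the spread between these libraries.

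The methionine cycle turns methionine into S-adenosylmethionine, the methyl donor of most methylation reactions, and recovers methionine from the homocysteine that remains. Homocysteine is either methylated again, with betaine or folate as the source of the methyl group, or passed down the transsulfuration branch to cysteine. The liver carries most of this traffic in the body, and it has an S-adenosylmethionine synthetase of its own, the product of Mat1a.

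Counts summed to between 17388360 and 22494696 per library, with the 3 Lmln-KO libraries the deeper ones. Lmln itself was low in all 3 Lmln-KO libraries, at 2 to 12 counts against 39 to 80 in WT. Its log2 fold change was -3.72 (SE 0.582), with an edgeR adjusted p of 0.933, so Lmln itself did not pass the test used for all genes. Liver markers were high, with albumin (Alb) at 45715 to 74329 CPM (counts scaled to a common library size). Of the pancreas markers, Prss1 and Cpa1 had no count, and Cela1 reached 24.9 CPM. Libraries of 2 kinds were present in both genotypes. Lmln-KO replicate 3 and WT replicates 2 and 3 carried Xist, the RNA of the inactive X chromosome (1878 to 1947 CPM), and the other 3 carried Y-linked transcripts (4 genes summing to 216 to 235 CPM). Differences between genotypes are therefore also given with a term for this split (the sex-marker term). Where levels are set side by side between these sets, that is a description with no test.

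The 3 stretches of upstream sequence are shown because their genes stood at opposite ends in the library with the highest levels, WT replicate 3: Gnmt and Cbs were highest there and Shmt2 was lowest. RefSeq start sites (GRCm38.p6) were found for 7 of the 9 genes, and those of Mat1a and Cth were not matched. Each stretch is 217 bases long, runs 5′ to 3′ on the gene's minus strand and ends 33 bases before the start site. The Gnmt stretch lies at chr17:46729199-46729415, Cbs at chr17:31637239-31637455 and Shmt2 at chr10:127522478-127522694. Capitals mark matches to 5 short motifs searched on both strands.
Gnmt: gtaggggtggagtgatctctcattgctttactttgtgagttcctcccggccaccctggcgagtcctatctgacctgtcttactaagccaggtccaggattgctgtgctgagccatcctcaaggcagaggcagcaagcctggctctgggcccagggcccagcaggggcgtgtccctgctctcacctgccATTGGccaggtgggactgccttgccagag
Cbs: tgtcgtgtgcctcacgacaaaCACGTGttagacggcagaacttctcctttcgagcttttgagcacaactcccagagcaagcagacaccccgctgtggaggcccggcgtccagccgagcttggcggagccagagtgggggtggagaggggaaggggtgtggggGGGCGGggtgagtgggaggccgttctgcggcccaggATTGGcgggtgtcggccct
Shmt2: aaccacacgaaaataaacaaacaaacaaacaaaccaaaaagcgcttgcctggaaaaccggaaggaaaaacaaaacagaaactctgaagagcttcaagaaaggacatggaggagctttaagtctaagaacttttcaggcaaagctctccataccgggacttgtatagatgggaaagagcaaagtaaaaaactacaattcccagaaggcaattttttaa

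The CCAAT box (CCAAT) was present once in the Gnmt and once in the Cbs stretch, both on the reverse strand, and in 30.6% of 32851 stretches of the same length and place. Cbs also held 1 GC box (GGGCGG, 28.0% of stretches) and 1 E-box (CACGTG, 4.92%). The TATA box (TATAAA, 9.84%) and the core of the cAMP response element (TGACG, 14.6%) were not among the letters of these 3 stretches, and Shmt2 held none of the 5 motifs. GC content was 60.8% for Gnmt, 65.4% for Cbs and 38.2% for Shmt2. Members not shown did not all follow this split. Bhmt, also lowest in WT replicate 3, held 1 CCAAT box. Pemt, highest there, held none of the 5 motifs at chr11:60037039-60037255 and 1 CCAAT box at chr11:60040222-60040438. Ahcy, also highest there, held 1 CCAAT box and 1 GC box. The motifs and stretches were chosen after the levels were seen, and a link between motifs and levels was not tested.

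None of the 9 enzyme genes passed the test for a difference between genotypes. In edgeR's quasi-likelihood test with Benjamini-Hochberg adjustment at 0.05, 0 of 9 were called, as were 0 of all 18703 genes (0%). At an unadjusted p under 0.05 there were 0 of 9, beside 871 genes (4.66%, of which 1.52% of tested genes were higher and 3.14% lower in Lmln-KO). The Lmln-KO and WT ranges overlapped for each of the 9, whereas 10.3% of tested genes showed no overlap (4.61% higher and 5.73% lower in Lmln-KO). The log2 fold change (Lmln-KO over WT) was positive for 2 of the 9 and for 49.4% of tested genes. Its median was -0.13 over the 9 and -0.0038 over all tested genes. Signs of Bhmt, Pemt and Shmt1 turned under at least 1 other setting or left-out library, and Gnmt came to about 0 without WT replicate 3. DESeq2 called 0 of the 9 (24 of all genes, 0.128%), limma-voom 0 (0%), edgeR with the sex-marker term 0 (1 gene, 0.00535%) and DESeq2 with that term 0 (31 genes, 0.166%). At an unadjusted p under 0.05 these fits held 0 of 9 (4.08% of tested genes), 0 (4.54%), 0 (4.34%) and 1 (2.96%), the last being Cth. The difference had the same sign in the Xist and the Y-linked set for 7 of the 9 and for 54.7% of tested genes. In each of these sets 1 genotype had only 1 library.

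**Figure D1:**
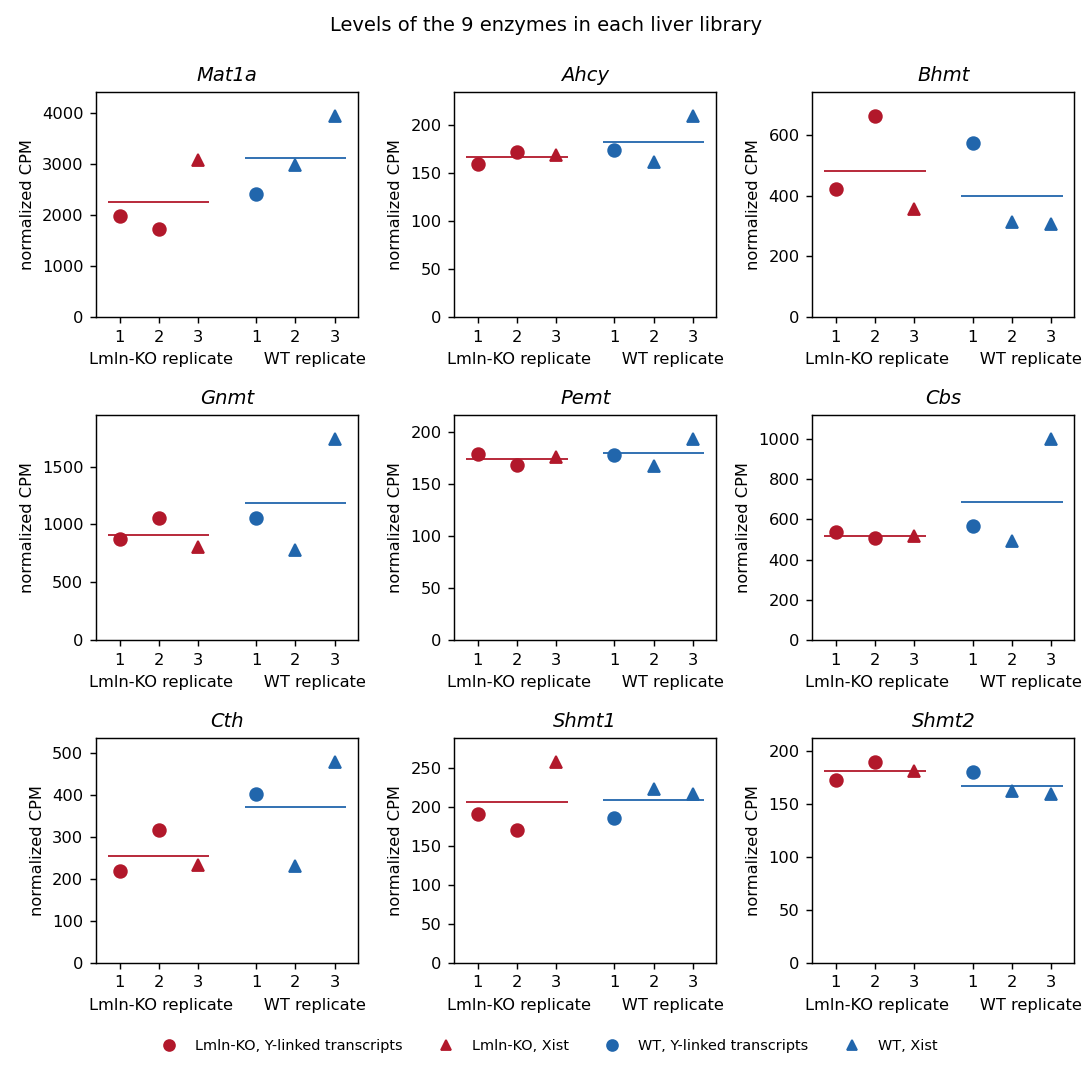
Normalized CPM (vertical axes, from 0) of each of the 9 enzyme genes in the 3 Lmln-KO and 3 WT libraries. Points are libraries, circles those with Y-linked transcripts and triangles those with Xist, and lines are group means. The rightmost triangle, WT replicate 3, is the highest point for 6 genes, and the groups overlap in every panel.

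Mat1a (chromosome 14, 41105035 to 41124412, GRCm38, plus strand), the synthetase that makes S-adenosylmethionine in the adult liver, held 46.2% of all counts of the 9 genes. It measured 1991, 1720 and 3081 CPM in Lmln-KO replicates 1, 2 and 3 and 2409, 2990 and 3948 CPM in WT replicates 1, 2 and 3. The 3 libraries with Xist were the 3 highest, at 2990 CPM or more, and those with Y-linked transcripts lay at 2409 CPM or less. The log2 fold change was -0.46 (SE 0.27, 95% interval -1.08 to 0.16; edgeR adjusted p 0.933). With the sex-marker term it was -0.27 (interval -0.67 to 0.12; edgeR adjusted p 0.987). Lmln-KO replicate 3 was both the 39-week-old animal and the only Lmln-KO library with Xist. Leaving it out gave -0.74 (unadjusted p 0.0197, edgeR adjusted p 0.676), and leaving out WT replicate 3 gave -0.25. Without Lmln-KO replicate 3, 1377 of 19102 tested genes had an unadjusted p under 0.05 in edgeR. In the Y-linked set, with only 1 WT library, the difference in mean log2 CPM was -0.38. In the Xist set, with only 1 Lmln-KO library, it was -0.16.

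Ahcy (chromosome 2, 155059310 to 155074497, minus strand) encodes the hydrolase that splits S-adenosylhomocysteine, left by each methyl transfer from S-adenosylmethionine, into homocysteine and adenosine. It was steady, at 159, 172 and 169 CPM in Lmln-KO replicates 1, 2 and 3 and 174, 162 and 210 CPM in WT. Only WT replicate 3 stood clear of the others. Lmln-KO over WT gave a log2 value of -0.13 (SE 0.127, interval -0.42 to 0.17), and -0.011 without WT replicate 3.

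Bhmt (chromosome 13, 93616675 to 93637961, minus strand) encodes the liver enzyme that remethylates homocysteine with betaine. It measured 422, 665 and 357 CPM in Lmln-KO replicates 1, 2 and 3 and 576, 314 and 308 CPM in WT replicates 1, 2 and 3. In contrast to Mat1a, the 3 libraries with Xist were the 3 lowest. The log2 fold change of 0.27 (SE 0.328, interval -0.51 to 1.05) was 0.06 with the sex-marker term (interval -0.35 to 0.47). Leaving out Lmln-KO replicate 2 turned the sign (-0.035), and leaving out WT replicate 1 gave 0.63.

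Gnmt (chromosome 17, 46725664 to 46729168, minus strand) encodes glycine N-methyltransferase, an abundant liver enzyme that uses up surplus S-adenosylmethionine. It measured 875, 1059 and 803 CPM in Lmln-KO replicates 1, 2 and 3, and 1051, 774 and 1742 CPM in WT. WT replicate 3 was 1.64 times the next highest library, and the other 5 lay between 774 and 1059 CPM with the genotypes mixed. Its log2 fold change of -0.38 (SE 0.29, interval -1.06 to 0.29) was 1.8e-07 without WT replicate 3 and -0.62 without WT replicate 2.

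Pemt (chromosome 11, 59970614 to 60046489, minus strand), which methylates phosphatidylethanolamine to phosphatidylcholine and is a large consumer of S-adenosylmethionine in liver, varied least. It measured 179, 168 and 176 CPM in Lmln-KO and 178, 167 and 193 CPM in WT replicates 1, 2 and 3. Its highest library was 1.16 times its lowest. The difference on the log2 scale was -0.04 (SE 0.107, interval -0.29 to 0.21), and 0.018 without WT replicate 3.

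Cbs (chromosome 17, 31608894 to 31637238, minus strand) encodes cystathionine beta-synthase, which commits homocysteine to transsulfuration. It measured 535, 507 and 515 CPM in Lmln-KO replicates 1, 2 and 3 and 566, 492 and 1001 CPM in WT. The Lmln-KO libraries differed little (coefficient of variation 2.81%), and WT replicate 3 was 1.77 times the next highest library, so the WT coefficient of variation was 40.1%. Its log2 fold change of -0.40 (SE 0.257, interval -0.997 to 0.19) was -0.027 without WT replicate 3 and -0.60 without WT replicate 2.

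Cth (chromosome 3, 157894248 to 157925077, minus strand), whose product cystathionine gamma-lyase releases cysteine, had the smallest p of the 9. It measured 219, 317 and 233 CPM in Lmln-KO replicates 1, 2 and 3 and 402, 231 and 480 CPM in WT. WT replicates 1 and 3 lay above all Lmln-KO libraries and WT replicate 2 lay among them. For Cth the log2 fold change was -0.54 (SE 0.279, interval -1.19 to 0.12), with an unadjusted p of 0.0959 and an adjusted p of 0.933 in edgeR. It was -0.60 with the sex-marker term, -0.31 without WT replicate 3 and -0.79 without WT replicate 2. In the fit without WT replicate 2 the unadjusted p of Cth was 0.0057 and the edgeR adjusted p 0.965. In that fit 3 of the 9 genes (Cth, Gnmt and Cbs) and 864 of 19346 tested genes had an unadjusted p under 0.05 in edgeR. Gnmt and Cbs also had an edgeR adjusted p of 0.965 in it. In the Y-linked set (Lmln-KO replicates 1 and 2, WT replicate 1) the difference in mean log2 CPM was -0.61. In the Xist set (Lmln-KO replicate 3, WT replicates 2 and 3) it was -0.52. There, Lmln-KO replicate 3 at 233 CPM lay beside WT replicate 2 at 231 CPM, and only WT replicate 3 was higher, at 480 CPM.

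Shmt1 and Shmt2 encode the cytosolic and mitochondrial serine hydroxymethyltransferases, which pass a carbon from serine to folate. Shmt1 (chromosome 11, 60788104 to 60811718, minus strand) measured 191, 171 and 258 CPM in Lmln-KO replicates 1, 2 and 3 and 185, 223 and 217 CPM in WT, and again the 3 libraries with Xist were the 3 highest. Its log2 fold change was -0.011 (SE 0.17, interval -0.40 to 0.38), and 0.10 with the sex-marker term. Shmt2 (chromosome 10, 127517123 to 127522444, minus strand) measured 173, 190 and 181 CPM in Lmln-KO and 180, 163 and 160 CPM in WT. Only WT replicate 1 lay inside the Lmln-KO range. Its log2 fold change was 0.11 (SE 0.107, interval -0.13 to 0.36).

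**Figure D2:**
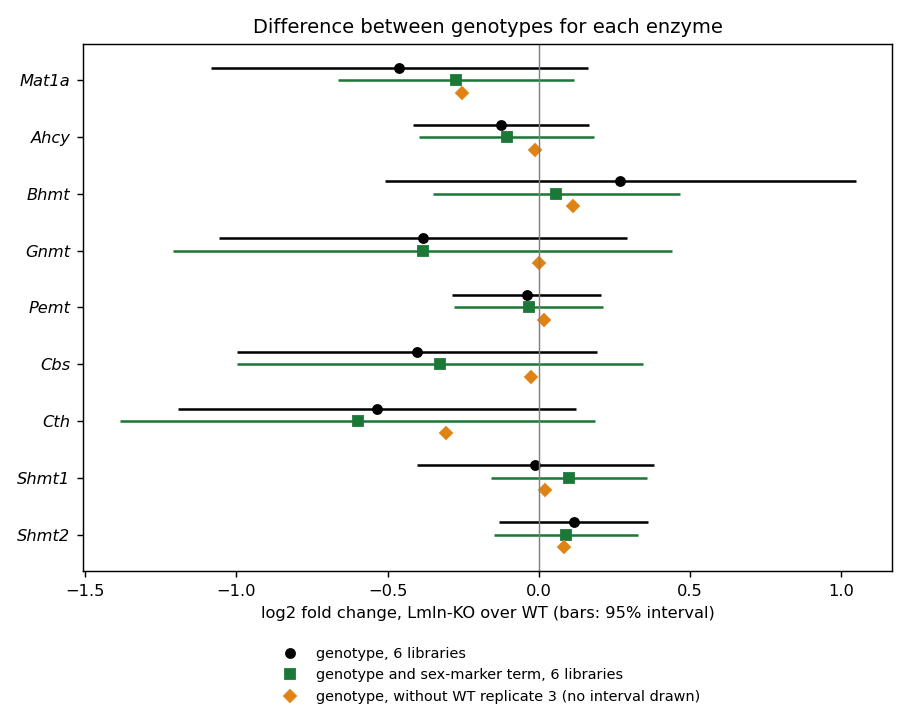
Log2 fold change (Lmln-KO over WT, horizontal axis) of each of the 9 enzyme genes in edgeR by genotype (black), with the sex-marker term (green) and without WT replicate 3 (orange). Bars are 95% intervals of the first 2 fits, and each of them includes 0. Without WT replicate 3 the values of Gnmt, Cbs and Ahcy lie between -0.03 and 0.

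WT replicate 3 was the highest library for 6 of the 9 genes (Mat1a, Ahcy, Gnmt, Pemt, Cbs and Cth), and it was the lowest for Bhmt and Shmt2. Over all tested genes it was the highest library for 23.7%. The 9 genes together took 0.824% of the counts in WT replicate 3, 0.554% and 0.564% in WT replicates 1 and 2, and 0.471%, 0.48% and 0.602% in Lmln-KO replicates 1, 2 and 3. The libraries with Xist lay wholly above those with Y-linked transcripts for Mat1a and Shmt1 and wholly below for Bhmt, while this held for 13.0% and 13.3% of tested genes.

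Markers of hepatocyte zones also stood apart in WT replicate 3. The 8 periportal markers summed to 4455 to 4948 CPM in Lmln-KO and 5389 to 9559 CPM in WT, and 7 of the 8 were highest in WT replicate 3. That these sums did not overlap rested on Pck1, a gluconeogenesis gene and the most abundant of the 8 in every library: the other 7 summed to 2041 to 3348 CPM in Lmln-KO and 2255 to 4105 CPM in WT, and the groups overlapped. Leaving out any other of the 8 kept the groups apart. Cyp2f2, the periportal marker that was not highest in WT replicate 3, was instead lowest in that library, at 373 CPM against 465 to 1239 CPM elsewhere. The 8 pericentral markers summed to 7210 to 10312 CPM in Lmln-KO and 5327 to 8698 CPM in WT, with WT replicate 3 the lowest. Cyp2e1, the most abundant of them in every library, measured 3446 CPM in WT replicate 3 and 4747 to 6851 CPM elsewhere. Glul, Cyp1a2 and Axin2 were also lowest in WT replicate 3, whereas Oat, Slc1a2, Rhbg and Lgr5 were not. The 8 general hepatocyte markers summed to 96141 to 106460 CPM in Lmln-KO and 108265 to 122216 CPM in WT. Alb, the most abundant of them in every library, measured 45715 to 60834 CPM in Lmln-KO and 62501 to 74329 CPM in WT. Without Alb the sums overlapped between the groups. The log2 fold change was positive for 2 of these 8 genes, and its median over them was -0.095. No marker of these 3 lists was at 0. Their part in the differences of the 9 genes was not tested. In whole-liver RNA, fewer cells of a type and less RNA per cell cannot be told apart.

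Among other cell types, the B and plasma cell markers (6 genes, none at 0) summed to 13.9 to 28.3 CPM in Lmln-KO and to 29.0, 152 and 297 CPM in WT replicates 1, 2 and 3. Kupffer cell markers (6 genes) summed to 170 to 204 and 184 to 253 CPM, endothelial ones (6 genes) to 341 to 422 and 377 to 380 CPM, and stellate cell and fibroblast ones (6 genes) to 340 to 474 and 421 to 500 CPM. Cholangiocyte markers (5 genes) stayed at 18.4 CPM or less. T and NK cell markers (6 genes, of which 0 had enough counts to be tested) summed to 1.01 to 1.88 CPM in Lmln-KO and 2.26 to 5.3 CPM in WT. Cftr, Cd3d, Cd8a and Ncr1 had no count in some libraries. Erythroid markers (5 genes) summed to 108 to 275 CPM in Lmln-KO and 80.9 to 228 CPM in WT. Their part was not tested either.

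Levels of different genes were compared per length of exon, as TPM, computed from the counts and the deposited exonic lengths. These lengths cover all exon entries of a gene name (for Cbs 111 entries and 7485 bases), and the order of genes depends on them. Mat1a and Gnmt led, with medians over the 6 libraries of 1867 and 1858 TPM. They did not differ beyond their spread, since Mat1a was the higher of the pair in only 2 of 6 libraries. The lowest Gnmt library (1588 TPM) was above the highest library of Cth (404 TPM), the next in order. From there the medians ran through Cth (236 TPM), Pemt (201), Cbs (173), Bhmt (170), Ahcy (143), Shmt2 (134) and Shmt1 (125 TPM), and the range of every gene overlapped that of the next in this order. Within libraries, Ahcy was above Shmt2 in 6 of 6 and Pemt above Cbs in 5 of 6, while the other neighbours from Cth down kept their order in 3 or 4 of 6.

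**Figure D3:**
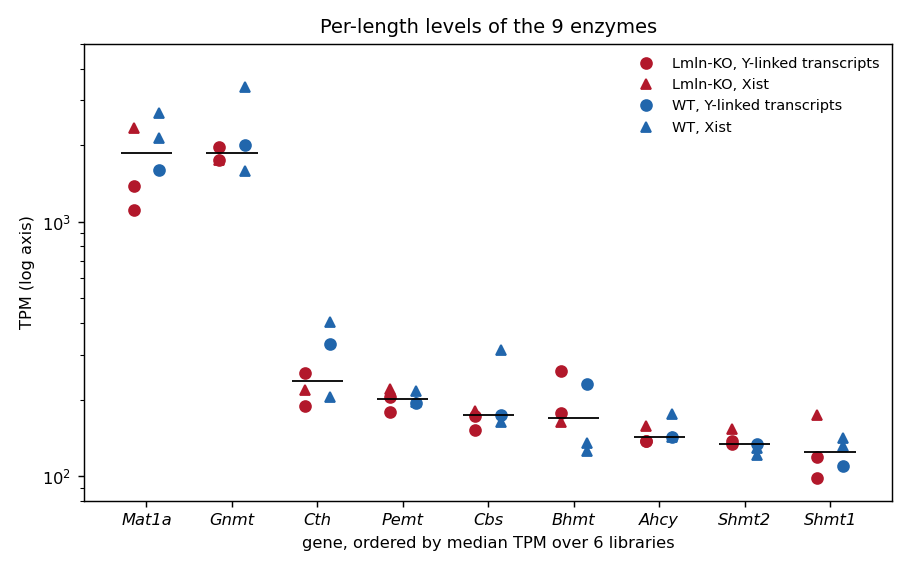
TPM (log axis) of the 9 enzyme genes in each library, ordered by the median over 6 libraries (black line). Colours mark genotype and shapes the sex-marker set. Mat1a and Gnmt lie at 1109 TPM or more in every library, and the other 7 genes at 404 TPM or less.

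Within the libraries, the liver synthetase gene Mat1a exceeded Mat2a, the form known from other tissues, by 26.5 to 68.0 times per length. Bhmt exceeded Mtr, which encodes the folate-dependent methionine synthase, by 16.3 to 35.6 times. Bhmt and its neighbour Bhmt2 were alike per length only, with a ratio of 0.86 to 1.67. In counts Bhmt was the higher in every library (5347 to 14075 against 2367 to 4170). Of the 36 ratios between pairs of the 9 genes, 3 (8.33%) did not overlap between genotypes. The share of single genes without overlap in CPM, 10.3%, is an unlike measure. The share over ratios of other gene pairs was not computed. Among the 3 ratios was Bhmt to Cth, at 0.935, 1.02 and 0.743 in Lmln-KO replicates 1, 2 and 3 and 0.694, 0.659 and 0.311 in WT. For Cbs, also a transsulfuration gene, the ratio of Bhmt to it overlapped (0.90 to 1.70 in Lmln-KO and 0.40 to 1.32 in WT). The other ratios without overlap were Mat1a to Shmt1 (11.3 to 13.4 in Lmln-KO and 14.6 to 20.4 in WT) and Ahcy to Shmt2 (at most 1.03 in Lmln-KO and 1.07 to 1.45 in WT). The 3 ratios without overlap were picked after their values were seen and are not tested.

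The genes whose levels followed a member most closely were found by the root-mean-square difference of centred log2 CPM over the 6 libraries, for the 3 members with the widest range. Among 13946 genes these were H2-M3 and Mfge8 for Mat1a (0.0652 and 0.0659), Tgfb1i1 and Samd4 for Gnmt (0.0642 and 0.0795), and Rny3 and Gm26397 for Cth (0.0869 and 0.087). H2-M3 had 36 to 74 counts per library, Tgfb1i1 37 to 76, Rny3 35 to 63 and Gm26397 35 to 67. Counting error at such counts is wider than the differences given. With 6 libraries and this many candidates, close matches are a description only.

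A further 71 genes of one-carbon metabolism were read from the same fit, of which 70 could be tested and Phgdh, the first enzyme of serine synthesis, was below the minimum count. None was called in edgeR over all genes tested, and 1 had an unadjusted p under 0.05. DESeq2 also called 0, with 2 at an unadjusted p under 0.05, and limma-voom 0, with 1. The log2 fold change was above 0 for 36 of the 70 and under 0 for 34, and its median was 0.02. The groups did not overlap for 4 of them (3 higher and 1 lower in Lmln-KO), beside 10.3% of all tested genes.

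**Figure D4:**
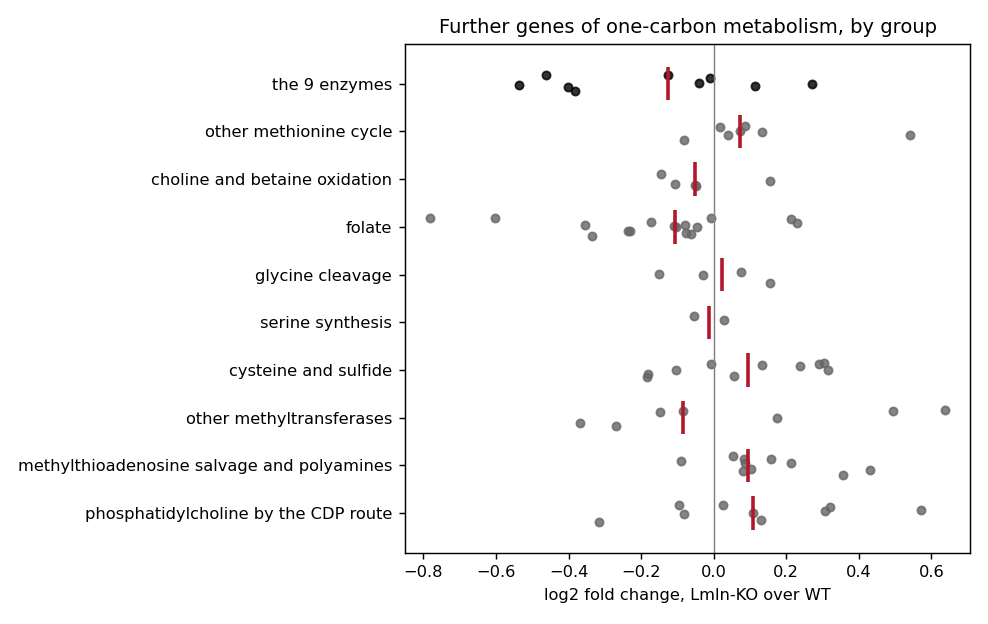
Log2 fold change (Lmln-KO over WT, horizontal axis) of the 9 enzyme genes and of 70 further genes in 9 groups, 1 point per gene, with the median of each group in red. Group medians lie between -0.13 and 0.11, and no gene passed the test.

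In the rest of the methionine cycle (7 genes, 6 of them positive, median 0.07), Ahcyl2, a relative of Ahcy, stood at 0.54 (SE 0.282) on the log2 scale. It measured 40.9, 59.9 and 26.7 CPM in Lmln-KO replicates 1, 2 and 3 and 33.0, 27.4 and 27.2 CPM in WT. The libraries with Xist, among them that of the 39-week-old animal, were the 3 lowest. With the sex-marker term the log2 fold change of Ahcyl2 was 0.29 (SE 0.201). Bhmt2, which methylates homocysteine from S-methylmethionine, had a log2 fold change of 0.13 (SE 0.138). Among 5 genes of choline and betaine oxidation (1 positive, median -0.05), Pipox, a peroxisomal oxidase of sarcosine, stood at -0.15 (SE 0.138), and Aldh7a1, which oxidises betaine aldehyde, at 0.16 (SE 0.189).

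Folate genes (16) were negative in 14 cases, with a median of -0.11. Mthfs, which returns formyltetrahydrofolate to the active pool, had the smallest p of all 70: it measured 6.44, 4.63 and 7.84 CPM in Lmln-KO and 7.54, 9.9 and 11.3 CPM in WT replicates 1, 2 and 3. Mthfs had a log2 value of -0.60 (SE 0.235), with an unadjusted p of 0.0333 and an adjusted p of 0.933 in edgeR. Slc19a1, the reduced folate carrier, measured 7.94 to 10.317 CPM in Lmln-KO and 10.324 to 12.5 CPM in WT, with a log2 fold change of -0.35 (SE 0.154). Slc46a1, the proton-coupled folate transporter, lay at 33.2 to 34.2 CPM in Lmln-KO and 26.3 to 31.6 CPM in WT, and is named after its values were seen. Both transporters showed no overlap between groups, in opposite directions, and neither passed the test.

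The 4 glycine cleavage genes had a median of 0.02. Gcsh, the lipoyl carrier protein, stood at 0.15 (SE 0.103) on the log2 scale, and Gldc, the decarboxylase, at -0.15 (SE 0.142). In serine synthesis, Psph, the phosphatase, and Psat1, the aminotransferase, were low, at 3.53 to 5.23 and 0.341 to 0.661 CPM over the 6 libraries. Their log2 fold changes were 0.028 (SE 0.204) and -0.054 (SE 0.455), and both signs turned when 1 library was left out.

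Cysteine, sulfide and glutathione genes (10, of which 6 were positive) had a median of 0.09. Mpst, a sulfurtransferase, stood at 0.31 (SE 0.177) on the log2 scale. Gclm, the modifier subunit of the enzyme that begins glutathione synthesis, measured 292, 287 and 270 CPM in Lmln-KO and 263, 262 and 170 CPM in WT replicates 1, 2 and 3, with no overlap and a log2 fold change of 0.29 (SE 0.176). In this gene WT replicate 3 was the lowest library.

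Other methyltransferases (7) had a median of -0.08. Inmt, which methylates indoleamines, had a log2 fold change of -0.27 (SE 0.199).

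Salvage and polyamine genes (10) were positive in 9 cases, with a median of 0.09. Amd1, the S-adenosylmethionine decarboxylase, stood at 0.43 (SE 0.222) on the log2 scale, and reads shared with its near copy Amd2 make its count uncertain. Srm, spermidine synthase, had one of 0.21 (SE 0.217). The CDP routes to phosphatidylcholine, the alternative to Pemt, and to phosphatidylethanolamine, the substrate of Pemt, had a median of 0.11 over 9 genes. Selenoi, the ethanolamine phosphotransferase, measured 136, 142 and 154 CPM in Lmln-KO and 130, 124 and 92.3 CPM in WT, with no overlap, a log2 difference of 0.32 (SE 0.146) and an unadjusted p of 0.0585 in edgeR. Etnk2, an ethanolamine kinase, had a log2 fold change of -0.32 (SE 0.169).

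The lowest count of any of the 9 genes in any library was 2775, at which counting error is 1.9% of the value if reads are independent. The coefficients of variation between libraries of a genotype ran from 2.81% to 41.9%. Strand options are absent from the counting command. An exon of Shmt1 overlaps Smcr8 (1214 to 1765 counts), 2 of Shmt2 overlap Ndufa4l2 (51 to 98 counts) and 3 of Bhmt overlap Gm15622 (47 to 177 counts), all on the opposite strand, so reads there cannot be told apart.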

How the data were processed

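Liver RNA, freed of ribosomal RNA, went through a directional kit and paired-end sequencing (labels' protocols). Values were deposited as raw counts per gene name, made by the authors with featureCounts 2.0.1 over exons of Ensembl release 102 (GRCm38), per the file headers. That command carries no paired-end or strand option, so mates count separately and counting errors given here are lower limits. The submitters' processing notes also name Subread 2.0.2 and edgeR 3.36.0. Which aligner was used is not given in the sources. Exonic length, per the file headers, served only for TPM.

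All 6 columns of counts matched the titles, and 0 rows named no gene. No pair of libraries looked like a duplicate, the smallest ratio of chi-square to its degrees of freedom being 12.2. Counts were fitted with edgeR 4.0.16 in R 4.3.3 (TMM, filterByExpr with a minimum count of 10, robust quasi-likelihood on genotype, Benjamini-Hochberg adjustment over all 18703 tested genes at 0.05). The SE was taken as the size of the log2 fold change over the root of the F statistic, and 95% intervals use the fit's degrees of freedom. Log2 CPM used a prior count of 2. Alternatives were DESeq2 1.42.0, limma-voom (limma 3.58.1), other scalings and filters, a replicate block and leaving out each library. The sex-marker term (Xist above or below 4 summed Y-linked genes) was chosen after seeing the data. The steps were tested on simulated counts.

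The 9 genes and all lists were chosen with earlier results of these data known. Named genes are the 9, the 2 of each further list with the smallest p, and the 2 closest in pattern to each of the 3 members with the widest range. Some items that this rule or the marker lists name are not reported here.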

Additional observations from a re-analysis of the deposited data

How the results depend on the processing

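None of the 9 enzyme genes and none of the 70 further genes was called under any of 13 other settings or the 2 with the sex-marker term, which were chosen after seeing the data. Over all genes the count of calls, 0 in edgeR by genotype, was 24 with DESeq2, 3 without a filter on low counts, 1 with the sex-marker term and 31 with that term in DESeq2, and it ran from 0 to 3 when each library was left out, the 3 arising without WT replicate 1. Deviations of same-numbered libraries had correlations of 0.465, -0.311 and 0.405. Every correlation between the genotypes was positive within a sex-marker set and negative across the sets. They therefore cannot show whether the replicate numbers pair the samples. With the replicate block edgeR called 1 gene and 0 of the 9. Mat1a had a log2 fold change of -0.48 there (unadjusted p 0.0354, edgeR adjusted p 0.764). In that fit 1209 of 18703 tested genes had an unadjusted p under 0.05. Lmln-KO replicate 2 correlated best with WT replicate 1 (0.473). The sign turned for Bhmt, Shmt1, Pemt, Psph and Psat1, and Gnmt came to about 0. When each library was left out, the log2 fold change ran from -0.035 to 0.63 for Bhmt, -0.62 to 1.8e-07 for Gnmt, -0.19 to 0.11 for Shmt1, -0.090 to 0.018 for Pemt, -0.10 to 0.19 for Psph and -0.28 to 0.18 for Psat1. Shmt1 was 0.0063 without a filter, 0.10 with the sex-marker term and 0.11 with that term in DESeq2, and Psph was -0.020 and -0.011 in the latter fits. The cause was not tested.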
